A study of Atriplex lentiformis with 9 samples.

Results

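The 5 entries USPL1, R47BP, RBL1, BXL7 and U86A1 were followed across the roots of quailbush (Atriplex lentiformis, a salt-tolerant desert shrub used to plant mine waste) that differed in how much zinc they held. They are 5 of the 5164 entries measured, and all 5 were among the 4801 that passed the filter on low values (10 normalised reads or more, reached by 2 or more libraries). Each was chosen because, in earlier results on these same libraries, its level had one of the tightest relations to root zinc among the named entries. The relation to zinc is therefore described below and not tested. An entry carries the name of an Arabidopsis protein and stands for the quailbush transcripts that the authors matched to it, so transcripts of close paralogs may share an entry.

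The plants grew for 11 weeks in mine tailings mixed with 10% compost (TC10), 15% compost (TC15) or 20% compost (TC20), and all groups shared the tailings. Tailings without compost and plants outside tailings are not analysed here. RNA came from whole roots, 1 library a plant, and 8 libraries were used (2 TC10, 3 TC15, 3 TC20). TC10 plant 5 was not used, because the header of its file names TC15 plant 6 and all of its 4995 entries are identical to that library. Whether those reads came from TC15 plant 6 (565 ug/g zinc), as taken here, or from TC10 plant 5 (1051 ug/g zinc) cannot be told from the files, and the zinc slopes without them stand beside the results. The p-values measure the spread between these plants. The libraries held 3030394 to 4752637 reads. None of 24 green-tissue markers was listed in any library, and of 19 root markers 8 were listed. Only 5164 entries were measured in all. Whether an unlisted marker had no reads or its name was never among the entries cannot be told. SHR, a regulator of root radial patterning, PHO1, which loads phosphate into the xylem, GSO1, a receptor kinase of the Casparian strip, and SKOR, a potassium channel of the root stele, passed the filter. The other listed root markers did not pass it. The root hair marker COBL9 stayed at or below 1.91 normalised reads, and SCR, PHT11 and PHT14 had means of 6.85, 5.44 and 6.08.

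Zinc is a micronutrient that many enzymes and DNA-binding proteins need and that becomes toxic in excess. Roots take it up mainly through ZIP transporters, and they limit its free amount by storing it in vacuoles and binding it to small chelators. None of the 5 entries belongs to that machinery. In Arabidopsis, USPL1 is a BURP-domain protein, named after unknown seed proteins. R47BP is an RNA-binding protein of the RBP47 family, whose members bind messenger RNA and can gather in stress granules. RBL1 is a rhomboid-like protease, a family that cuts proteins inside membranes. BXL7 is a probable beta-xylosidase, an enzyme type that removes xylose from cell wall polysaccharides. U86A1 is a UDP-glycosyltransferase, an enzyme type that attaches sugars to small molecules.

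Root zinc gave the plants a clear order. It was 174, 215 and 277 ug/g in TC20 plants 9, 3 and 5, then 373 in TC15 plant 2, 491 in TC10 plant 2, 565 in TC15 plant 6, 637 in TC10 plant 4 and 1075 in TC15 plant 10. The 3 TC20 roots thus held the least zinc, and the TC10 and TC15 plants were mixed above them. The values of the entries below are normalised reads (read counts that the authors divided by 1 size factor per library) and follow this order of plants. They are RNA levels of whole roots, in which fewer cells of a type and less RNA per cell cannot be told apart.

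USPL1 and R47BP were higher where zinc was higher. USPL1 had 153, 237 and 270.1 normalised reads in TC20 plants 9, 3 and 5, then 321 in TC15 plant 2, 289 in TC10 plant 2, 394 in TC15 plant 6, 468 in TC10 plant 4 and 668 in TC15 plant 10. The plant with the least zinc had the lowest value and the plant with the most zinc the highest, a 4.36-fold range. The order of USPL1 matched that of zinc in 27 of the 28 pairs of plants. The exception was TC10 plant 2, which lay below TC15 plant 2 although it held more zinc. This count takes the library labelled TC15 plant 6 at 565 ug/g zinc, and its plant is in doubt. If its reads came from TC10 plant 5 (1051 ug/g zinc), its USPL1 value (394) would lie below that of TC10 plant 4 (468), which held 637 ug/g. On log2(value + 1), the slope was 0.70 per doubling of root zinc (SE 0.10).

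R47BP had 288, 359.7 and 353 normalised reads in TC20 plants 9, 3 and 5, then 486 in TC15 plant 2, 446 in TC10 plant 2, 655 in TC15 plant 6, 571 in TC10 plant 4 and 651 in TC15 plant 10. The 3 TC20 plants were low and the 5 others high, with a 2.28-fold range in all. Its slope was 0.46 per doubling of zinc (SE 0.09), and 24 of the 28 pairs of plants had the order of zinc. Above 565 ug/g zinc it was no higher: TC15 plant 6 had as much as TC15 plant 10, which held 1075 ug/g. This rests on the library labelled TC15 plant 6, whose plant is in doubt. If its reads came from TC10 plant 5 (1051 ug/g zinc), both libraries had like values at like zinc. The 95% exact Poisson intervals of TC15 plants 6 and 10, 600.3 to 713 and 605 to 699.8, overlap and cover counting error only, as do the other intervals below.

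RBL1, BXL7 and U86A1 were lower where zinc was higher. RBL1 had 177, 185 and 97.0 normalised reads in TC20 plants 9, 3 and 5, then 77.4 in TC15 plant 2, 84.8 in TC10 plant 2, 81.1 in TC15 plant 6, 90.6 in TC10 plant 4 and 45.9 in TC15 plant 10. It stood apart at both ends of the zinc range, high in 2 of the 3 TC20 plants and low in TC15 plant 10, while the 4 plants from 373 to 637 ug/g zinc differed little. RBL1 has the fewest reads of the 5 entries. The value in TC15 plant 10 rests on 52 reads (95% exact Poisson interval 34.3 to 60.2 normalised reads) and that in TC20 plant 3 on 183 (159.5 to 214). The slope was -0.67 per doubling of zinc (SE 0.14), and 22 of the 28 pairs of plants had the order opposite to zinc.

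BXL7 had 518, 499 and 432 normalised reads in TC20 plants 9, 3 and 5, then 453 in TC15 plant 2, 317 in TC10 plant 2, 372 in TC15 plant 6, 326 in TC10 plant 4 and 272 in TC15 plant 10. Its range, 1.91-fold, was the narrowest of the 5 entries, and its values lay close to the zinc line, between 0.19 below it and 0.17 above it on the log2 scale. The slope was -0.36 per doubling of zinc (SE 0.08), with the order opposite to zinc in 25 of the 28 pairs of plants. The line and the count take the library labelled TC15 plant 6 at 565 ug/g zinc, and its plant is in doubt. If its reads came from TC10 plant 5 (1051 ug/g zinc), its BXL7 value (372) would lie above TC10 plants 2 and 4 at more zinc.

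U86A1 had 1065, 566 and 979 normalised reads in TC20 plants 9, 3 and 5, then 514 in TC15 plant 2, 317 in TC10 plant 2, 267 in TC15 plant 6, 416 in TC10 plant 4 and 291 in TC15 plant 10. Every TC20 plant was higher than every other plant, although TC20 plant 3 (566) stood near TC15 plant 2 (514). U86A1 had the steepest slope of the 5, -0.73 per doubling of zinc (SE 0.17), and the loosest one. Its values ranged from 0.52 below the zinc line, in TC15 plant 6, to 0.61 above it, in TC20 plant 5. The plant, and so the zinc content, of the library labelled TC15 plant 6 is in doubt. The order was opposite to zinc in 24 of the 28 pairs of plants.

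**Figure D1:**
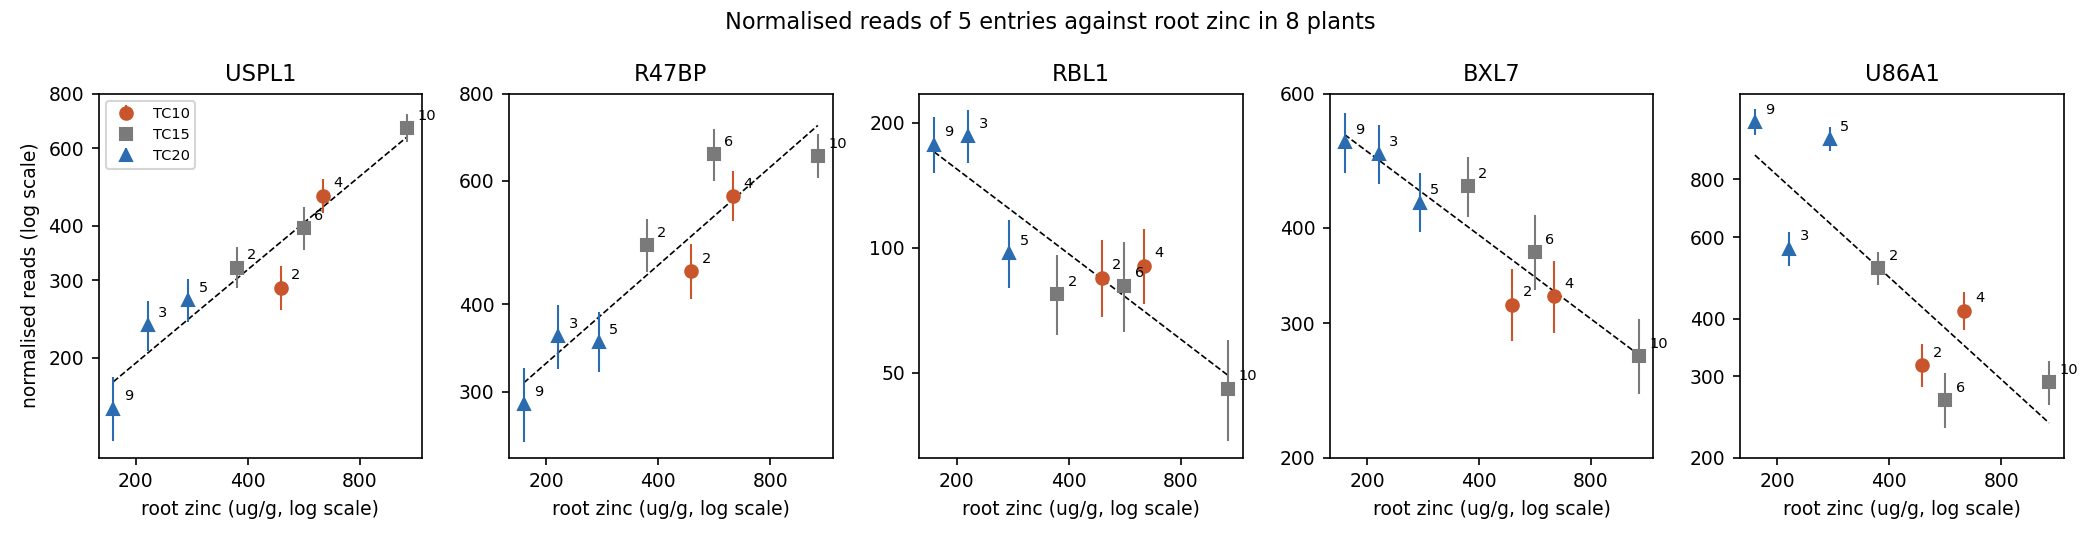
Normalised reads (y axis, log scale) of the 5 entries against root zinc in ug/g (x axis, log scale). Each point is 1 plant with its number and its 95% exact Poisson interval, colours and shapes give the treatment, and the dashed line is the least-squares fit on the log2 scale. USPL1 and R47BP lie higher at higher zinc (153 to 668 and 288 to 655 normalised reads), and RBL1, BXL7 and U86A1 lie lower.

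The entries were chosen by how tight the relation was, not by how steep: 129 of the 4801 tested entries had a larger absolute slope on zinc than U86A1. Ranked by slope divided by its SE (limma's moderated t) over the 4582 tested entries whose name is not a locus code, USPL1, R47BP, BXL7 and RBL1 took the ranks 1 to 4 and U86A1 rank 6. IPMKB, an inositol polyphosphate kinase that is not among the 5, had rank 5 (slope -0.56, SE 0.12). Just inside, U86A1 had a t of -4.25. Just outside, ATCA1, a carbonic anhydrase, also had a t of -4.25, with a slope of -1.23 (SE 0.29) at a mean of 72.5 normalised reads. ISOA3, a starch-debranching isoamylase, and LHWL3, a bHLH factor related to LONESOME HIGHWAY, came next with slopes of 0.38 (SE 0.09) and -0.38 (SE 0.09). The median slope of all tested entries was 0.00 and their median absolute slope 0.11.

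With limma, 0 of the 4801 entries (0%) had an adjusted p under 0.05 on the zinc slope, the 5 members included. The lowest adjusted p was 0.28, that of USPL1. By unadjusted p under 0.05, limma gave 204 entries (4.25%). The edgeR quasi-likelihood test called 0 entries (0%), with 244 unadjusted. DESeq2 called 6 of 5164 (0.116%), which were USPL1, R47BP, BXL7 and RBL1 of the members, and IPMKB and ATCA1. U86A1 had a DESeq2 adjusted p of 0.069. The members were picked on this same relation, so these counts describe the choice and add nothing to it.

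Zinc and treatment overlap in the design, because the TC20 plants had the 3 lowest zinc contents. Within treatments, 7 pairs of plants can be compared. USPL1 had the order of zinc in 7 of these 7 pairs: its values were 289 and 468 normalised reads at 491 and 637 ug/g zinc in TC10, 321, 394 and 668 at 373, 565 and 1075 ug/g in TC15, and 153, 237 and 270.1 at 174, 215 and 277 ug/g in TC20. BXL7 had the opposite order in 6 of the 7, with the TC10 plants (317 and 326) as the exception. R47BP had the order of zinc in 5 of 7, and RBL1 and U86A1 the opposite order in 4 of 7. All these counts take the library in doubt as TC15 plant 6. If its reads came from TC10 plant 5 (1051 ug/g zinc), USPL1 (394) would lie below TC10 plant 4 (468) at more zinc. BXL7 (372) would then lie above the TC10 plants with less zinc (317 and 326). The entries were chosen for their relation to zinc in these same libraries, which favours such orders. The pair counts and the slopes with treatment given next are therefore descriptions only.

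With treatment in the fit, the zinc slope of USPL1 was 0.83 (SE 0.19) and that of BXL7 -0.44 (SE 0.14), both larger in size than without it. The slope of RBL1 was -0.61 (SE 0.28), that of R47BP 0.31 (SE 0.16) and that of U86A1 -0.35 (SE 0.32). For U86A1 the slope without treatment was -0.73, and the slope with treatment is about the size of its SE. In the 5 TC10 and TC15 libraries alone, a setting added after the data were seen, the slopes were 0.79 (SE 0.20) for USPL1, 0.31 (SE 0.19) for R47BP, -0.52 (SE 0.31) for RBL1, -0.43 (SE 0.18) for BXL7 and -0.40 (SE 0.28) for U86A1. With an SE of 0.32, the slope of U86A1 with treatment is not separated from -0.73. Zinc and compost treatment cannot be told apart in the difference between TC20 and the other plants. Without the library labelled TC15 plant 6, whose plant is in doubt, the zinc slopes were 0.71 for USPL1 (SE 0.11), 0.43 for R47BP (SE 0.081), -0.68 for RBL1 (SE 0.15), -0.38 for BXL7 (SE 0.080) and -0.68 for U86A1 (SE 0.16).

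**Figure D2:**
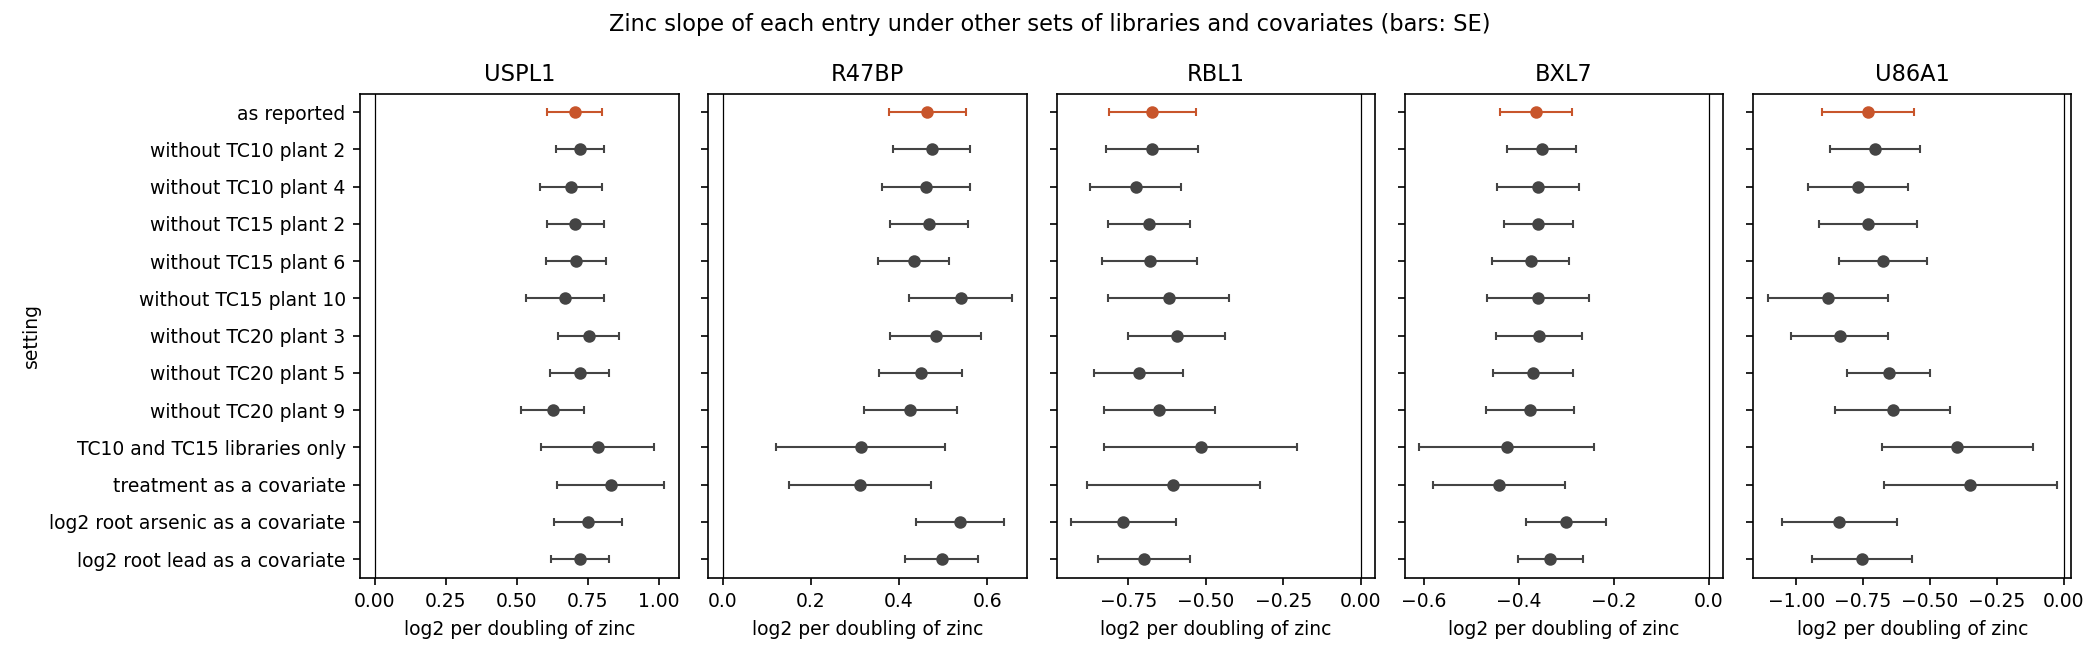
Zinc slope of each entry in log2 per doubling of root zinc (x axis), as reported in the top row and below it without each library in turn, in the 5 TC10 and TC15 libraries alone, and with treatment, arsenic or lead in the fit. Points are slopes and bars are SE. No slope changed sign, and the bar of U86A1 with treatment in the fit comes closest to 0 (-0.35, SE 0.32).

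The series asks how expression differed across the 3 treatments. For USPL1 the TC10 mean was 378 ± 127 normalised reads (SD, n = 2), the TC15 mean 461 ± 183 and the TC20 mean 220.1 ± 60.3 (n = 3 for both). For R47BP the TC10 mean was 509 ± 88.6, the TC15 mean 597 ± 96.3 and the TC20 mean 334 ± 39.8, with the same n. For RBL1 the TC10 mean was 87.7 ± 4.07, the TC15 mean 68.1 ± 19.4 and the TC20 mean 153 ± 48.8. For these 3 entries every TC20 plant lay on one side of every other plant, lower for USPL1 and R47BP and higher for RBL1.

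U86A1 stood at 367 ± 69.9 normalised reads for TC10, 357 ± 136 for TC15 and 870.2 ± 267 for TC20, and its TC20 plants were also higher than all others. BXL7 stood at 321 ± 5.87 for TC10, 366 ± 91.0 for TC15 and 483 ± 45.3 for TC20. Its TC20 plants were higher than the TC10 plants and overlapped with TC15, because TC15 plant 2 (453) exceeded TC20 plant 5 (432). Thus 4 of the 5 entries did not overlap between TC20 and the 5 other libraries, as did 175 of all 4801 entries (3.65%). Against TC10 alone the TC20 plants did not overlap for all 5 entries (18.5% of all entries), and against TC15 alone for 4 (12.9%). The choice by zinc favours such entries, so nothing is read from these shares.

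None of the 5 entries passed the limma F test of equal treatment means (adjusted p = 0.81 for each), a test that called 0 of 4801 entries (0%) with 247 unadjusted (5.14%). DESeq2's likelihood ratio test called 35 of 5046 entries (0.694%) and none of the 5, with adjusted p from 0.057 for U86A1 and 0.086 for R47BP to 0.62 for BXL7. The edgeR quasi-likelihood test called 0 (0%), with 271 unadjusted.

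In TC20 against TC15, U86A1 had 870.2 ± 267 and 357 ± 136 normalised reads, a log2 difference of 1.29 (SE 0.33), and RBL1 153 ± 48.8 and 68.1 ± 19.4, a log2 difference of 1.14 (SE 0.34). USPL1 differed by -1.03 (SE 0.35), R47BP by -0.83 (SE 0.19) and BXL7 by 0.43 (SE 0.21) on the log2 scale. The limma adjusted p was 0.79 for each of the 5, and limma called 1 of 4801 entries (0.0208%), which was not a member (280 unadjusted, 5.83%). The edgeR test called 0 there (309 unadjusted) and DESeq2 11 (0.214%), none of them a member. In TC20 against TC10 the log2 differences were 1.21 for U86A1 (SE 0.37), 0.74 for RBL1 (SE 0.38), 0.58 for BXL7 (SE 0.23), -0.60 for R47BP (SE 0.21) and -0.78 for USPL1 (SE 0.39), with a limma adjusted p of 0.92 each, where limma called 0 entries (0%) with 206 unadjusted (4.29%). There edgeR called 0 with 223 unadjusted and DESeq2 14 (0.277%), none of them a member. These contrasts share the TC20 libraries. Without TC10 plant 4, USPL1 differed by -0.43 in TC20 against TC10, and without TC15 plant 10, BXL7 differed by 0.23 in TC20 against TC15.

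No entry of the 5 passed in TC15 against TC10, where RBL1 had no DESeq2 adjusted p. The log2 differences of TC15 against TC10 lay between -0.40 (RBL1, SE 0.38) and 0.25 (USPL1, SE 0.39), with limma adjusted p of at least 0.83 and 0 of 4801 entries called (0%, 318 unadjusted, 6.62%; edgeR called 0 with 335 unadjusted and DESeq2 22, 0.861% of the 2555 with an adjusted p). RBL1 was the one member without overlap there, with 77.4, 81.1 and 45.9 normalised reads in TC15 and 84.8 and 90.6 in TC10, as were 24.7% of all entries.

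**Figure D3:**
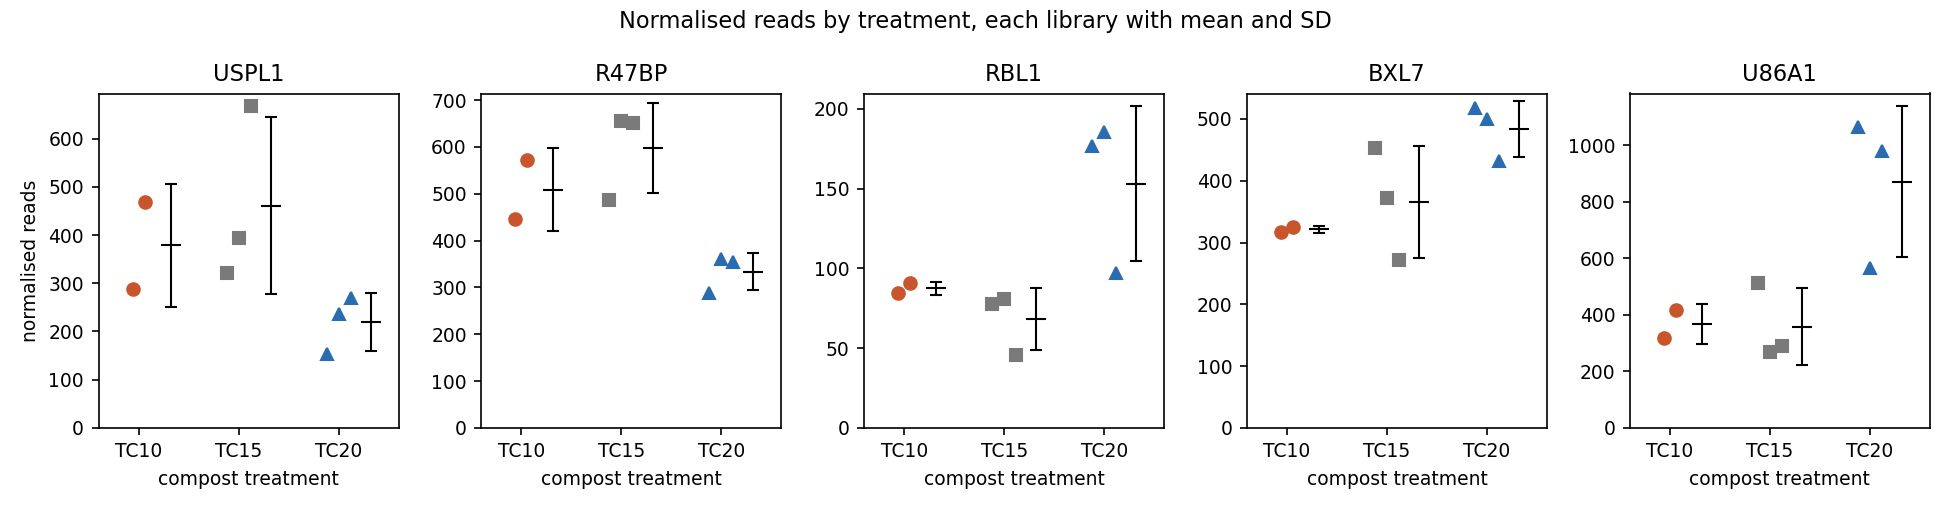
Normalised reads (y axis, from 0) of the 5 entries in TC10, TC15 and TC20 (x axis, low to high compost). Points are libraries, and the black mark and bar beside them are the mean and SD of 2 libraries in TC10 and 3 in TC15 and in TC20. The TC20 points lie below all others for USPL1 and R47BP and above all others for RBL1 and U86A1, while BXL7 overlaps with TC15.

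Arsenic and lead separate from zinc in some plants. TC20 plant 9 had the least zinc but 107 ug/g arsenic, and TC15 plant 2, in the middle of the zinc range, had the least arsenic (36 ug/g) and lead (10 ug/g). Arsenic had the order of zinc in 22 of the 28 pairs of plants and lead in 17. These metals were measured in the same roots and the entries in the same libraries, so their slopes are not independent of the choice by zinc.

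Against arsenic, each slope had the sign of its zinc slope and was smaller in size, with a larger SE. It was 0.38 per doubling for USPL1 (SE 0.25), 0.20 for R47BP (SE 0.18), -0.31 for RBL1 (SE 0.27), -0.31 for BXL7 (SE 0.12) and -0.33 for U86A1 (SE 0.31). The limma adjusted p was at least 0.94, and limma called 0 of 4801 entries (0%) with 245 unadjusted (5.1%), edgeR 0 with 240 and DESeq2 10 (0.219%), none of them a member. With zinc in the fit, the arsenic slopes were -0.09 for USPL1 (SE 0.13), -0.14 for R47BP (SE 0.11), 0.18 for RBL1 (SE 0.18), -0.12 for BXL7 (SE 0.09) and 0.20 for U86A1 (SE 0.23). All but that of BXL7 had then changed sign. With arsenic in the fit, the zinc slopes were 0.75, 0.54, -0.77, -0.30 and -0.84 in the same order of entries.

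Against lead the slopes were nearer to 0: 0.12 for USPL1 (SE 0.25), 0.01 for R47BP (SE 0.18), -0.08 for RBL1 (SE 0.26), -0.20 for BXL7 (SE 0.13) and -0.11 for U86A1 (SE 0.30). The limma adjusted p was at least 0.75 and limma called 0 entries (0%, 330 unadjusted, 6.87%). Lead called more entries in the other tools, 2 with edgeR (0.0417%) and 42 with DESeq2 (0.813%), and none of the 5 was among them. BXL7 was the member with the most similar slopes on all 3 metals. Its highest values were in plants low in zinc, and TC15 plant 2, with the least arsenic and lead, lay above the zinc line by 0.17 on the log2 scale.

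The arsenic and lead slopes moved in opposite directions when either of 2 plants was left out: TC15 plant 2, which had the least of both metals, and TC15 plant 10, which had the most arsenic. Without TC15 plant 2, the arsenic slopes were 0.96 for USPL1 (SE 0.32), 0.58 for R47BP (SE 0.25), -1.05 for RBL1 (SE 0.29), -0.55 for BXL7 (SE 0.16) and -0.73 for U86A1 (SE 0.48). Each was then at least as steep as the entry's zinc slope over all 8 libraries, with a larger SE. The lead slopes without TC15 plant 2 were 0.60 for USPL1 (SE 0.57), 0.24 for R47BP (SE 0.41), -1.03 for RBL1 (SE 0.49), -0.55 for BXL7 (SE 0.26) and -0.38 for U86A1 (SE 0.70). Leaving out the same plant gave zinc slopes of 0.71, 0.47, -0.68, -0.36 and -0.73, close to those over all 8 libraries. Without TC15 plant 10, in contrast, the arsenic slopes were 0.15 for USPL1 (SE 0.26), 0.092 for R47BP (SE 0.22), -0.045 for RBL1 (SE 0.29), -0.23 for BXL7 (SE 0.14) and -0.18 for U86A1 (SE 0.37). The lead slopes without it were 0.0053, -0.045, 0.035, -0.15 and -0.030 in the same order, and the zinc slopes 0.67, 0.54, -0.62, -0.36 and -0.88. The zinc slopes were thus steeper than the arsenic slopes over all 8 libraries and without TC15 plant 10, and not steeper without TC15 plant 2. Without TC15 plant 2 the lead slopes of RBL1 and BXL7 were also steeper than their zinc slopes. Arsenic then ran from 65 to 216 ug/g and zinc still from 174 to 1075, and the part of this narrower range was not tested. The choice by zinc favours steep zinc slopes, so nothing is read from which metal is steeper. No arsenic or lead slope of a member passed limma without either plant, where 0 entries were called for either metal.

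**Figure D4:**
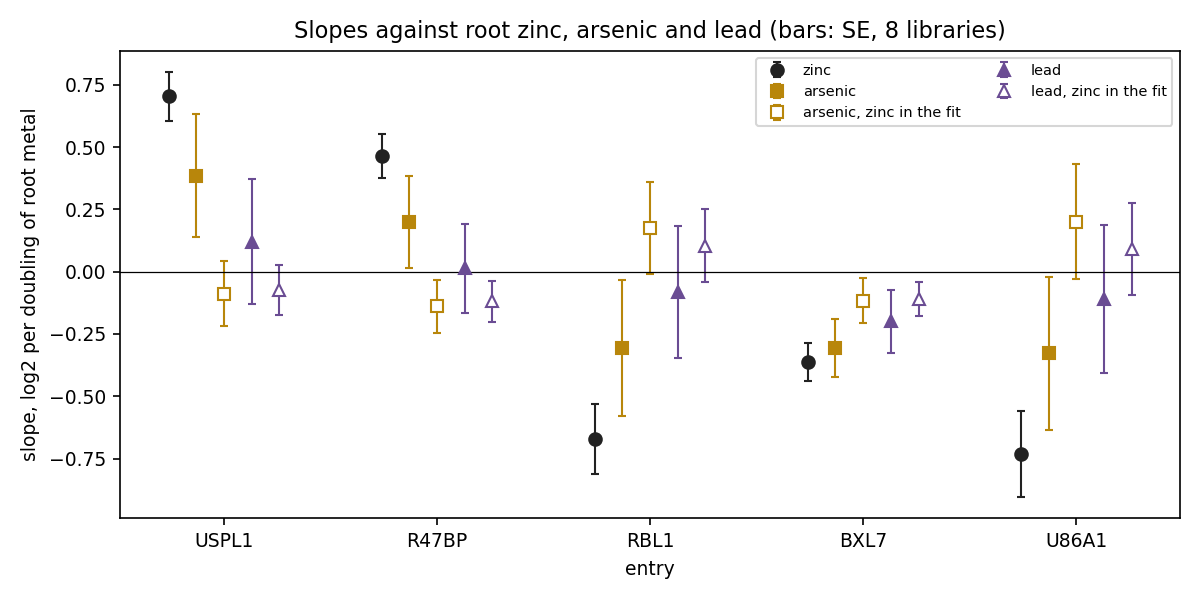
Slopes of the 5 entries in log2 per doubling of the metal content of the root (y axis), for zinc (black circles), arsenic (squares) and lead (triangles). Filled symbols are fits with that metal alone, open symbols have zinc in the fit as well, and bars are SE over 8 libraries. The zinc slopes (0.70, 0.46, -0.67, -0.36 and -0.73) are the largest in size for each entry over these 8 libraries, which the choice by zinc favours. Without TC15 plant 2 this is no longer so for arsenic, nor for lead in RBL1 (-1.03) and BXL7 (-0.55).

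Plant height and the stress score were not used in the choice, although the same 8 plants carry them. Per 10 cm of height, the slopes lay between -0.06 (R47BP, SE 0.10) and 0.16 (U86A1, SE 0.16), with limma adjusted p of at least 0.89 and 0 entries called (0%, 226 unadjusted, 4.71%; edgeR 0 with 255 unadjusted and DESeq2 4, 0.0775%). The slope of U86A1 on height was 0.032 without TC20 plant 5 and 0.30 without TC20 plant 9. Per unit of the stress score, whose scale the labels do not explain, the slopes were 0.45 for USPL1 (SE 0.20), 0.32 for R47BP (SE 0.14), -0.52 for RBL1 (SE 0.20), -0.15 for BXL7 (SE 0.13) and -0.38 for U86A1 (SE 0.27). Without TC15 plant 10 the slope was 0.26 for USPL1 and -0.016 for BXL7, and U86A1 had -0.24 without TC15 plant 6 and -0.24 without TC20 plant 9. BXL7 had -0.092 without TC20 plant 9. The limma adjusted p over all 8 libraries was 0.73 to 0.79, and limma called 0 of 4801 entries (0%, 269 unadjusted, 5.6%; edgeR 0 with 298 unadjusted and DESeq2 6, 0.117%). The score was 4 in TC15 plants 6 and 10, which held 565 and 1075 ug/g zinc, and 2 in TC20 plants 3 and 9, which held 215 and 174. It was also 2 in TC10 plants 2 and 4, which held 491 and 637 ug/g. TC15 plant 2 (373 ug/g) and TC20 plant 5 (277 ug/g) had a score of 3. If the reads labelled TC15 plant 6 came from TC10 plant 5, their plant had a score of 2. The part of zinc in the stress slopes was not tested.

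Relatives of the 5 entries, listed by family with earlier results of these data known, did not pass any limma test here. They are given by their zinc slopes (log2 per doubling) and by values in the order of plants used above. Of 2 listed BURP-domain relatives of USPL1, RD22, which responds to dehydration and abscisic acid in Arabidopsis, had a slope of 0.11 (SE 0.23) and PGL3, which resembles the non-catalytic subunit of a polygalacturonase, -0.13 (SE 0.30). RD22 ran from 5737 normalised reads in TC15 plant 2 to 19480 in TC20 plant 5, plants that were neither lowest nor highest in zinc. Their slopes on lead had opposite signs, 0.52 for RD22 (SE 0.14) and -0.76 for PGL3 (SE 0.15), and neither passed after adjustment. Of 2 listed relatives of R47BP, the RNA-binding protein UBP1B was nearly level, at 1873 to 2385 normalised reads with a slope of 0.03 (SE 0.07), and R47CP was near the limit of detection at 0 to 44.6.

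Of 5 tested rhomboid relatives of RBL1, 4 had negative and 1 a positive zinc slope, with a median of -0.12. RBL12 had 213 normalised reads in TC20 plant 9 and 125 in TC15 plant 10, the ends of the zinc range, with a slope of -0.18 (SE 0.11). RBL15 stayed at 382 to 553 with a slope of -0.03 (SE 0.09). RBL2 (-0.12, SE 0.26) and RBL14 (0.10, SE 0.23) were highest in TC10 plant 2, at 4037 and 293, and RBL3 (-0.79, SE 0.40) held only 2.89 to 32.7 normalised reads. Of 4 tested beta-xylosidases beside BXL7, 2 had positive slopes (BXL1, which acts on the cell wall in Arabidopsis, 0.14, SE 0.28, and BXL6, 0.03, SE 0.11) and 2 negative ones (BXL2, -0.20, SE 0.23, and BXL5, -0.19, SE 0.26). BXL1 was highest in TC10 plant 2 at 909.96 normalised reads and lowest in TC20 plant 9 at 208, where BXL7 had its highest value.

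Of 18 tested UDP-glycosyltransferases beside U86A1, 12 had positive and 6 negative zinc slopes, with a median of 0.13. The 3 most abundant, U80A2, a sterol glucosyltransferase, U79B6 and U89A2, had slopes of 0.13 (SE 0.11), 0.14 (SE 0.23) and 0.14 (SE 0.15). U86A2, which shares the family number of U86A1 and was singled out for that reason, had -0.43 (SE 0.32), a log2 difference of 1.31 in TC20 against TC10 (SE 0.52) and 1.29 in TC20 against TC15, at 13.1 to 67.3 normalised reads. Of 5 tested xylan synthesis genes, which build the polymer that beta-xylosidases act on, 1 had a positive and 4 a negative slope (median -0.08). Among them UXS3, which makes UDP-xylose, had -0.15 (SE 0.20), IRX9, a glycosyltransferase of the xylan backbone, 0.01 (SE 0.20), and IX14H -0.06 (SE 0.17). Of 5 tested zinc handling genes, 2 had positive and 3 negative slopes (median -0.18), and 1 had an unadjusted p under 0.05. This was ZIP4, named for that reason after its values were seen, which in Arabidopsis is a zinc-responsive member of the ZIP transporter family. ZIP4 had a zinc slope of -0.73 (SE 0.23), with 67.9 normalised reads in TC15 plant 10 and up to 443 in TC20 plant 5. Its log2 difference was 1.35 in TC20 against TC10 (SE 0.40) and 1.499 in TC20 against TC15 (SE 0.36), and none of its limma tests passed after adjustment. For comparison, 2401 of all 4801 zinc slopes were positive.

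The entries whose pattern was most like each member were taken by the highest Pearson r of log2(value + 1) over the 8 libraries, among 3994 others with a mean of at least 50 normalised reads. Such high r are the extremes of many candidates over few plants and carry no test. Nearest to USPL1 were MORC2, a relative of GHKL ATPases that silence DNA (r = 0.94), FBL11, an F-box protein (r = 0.94), and NAC29, a NAC factor that promotes leaf senescence in Arabidopsis (r = 0.93). NAC29 spanned 69.5 to 829 normalised reads with a zinc slope of 0.96 (SE 0.24), while MORC2 spanned only 610.2 to 789.5. Nearest to R47BP were MAX1, a cytochrome P450 of strigolactone synthesis (r = 0.94), FBL11 again (r = 0.93) and USPL1 itself (r = 0.92).

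Nearest to RBL1 was TMN1, a transmembrane-nine protein of the endomembrane system (r = 0.98), at 2758 to 3800.1 normalised reads. OST48, a subunit of the complex that N-glycosylates proteins in the endoplasmic reticulum (r = 0.95), and SEC5A, a subunit of the exocyst that tethers secretory vesicles (r = 0.92), followed. Nearest to BXL7 were BPG2, a plastid GTPase (r = 0.95), PPDEX (r = 0.92) and IMPL1, an inositol monophosphatase relative (r = 0.904). Nearest to U86A1 were THO7B, a subunit of the THO complex of mRNA export (r = 0.96), KEULE, which regulates membrane fusion in cell division (r = 0.95), and YIPL3 (r = 0.95). Among the 5 members, Pearson r was 0.92 between USPL1 and R47BP, 0.66 to 0.83 among RBL1, BXL7 and U86A1, and -0.76 to -0.89 between the 2 sets. A shared relation to zinc fixes these signs. The least alike of one sign were RBL1 and U86A1: TC20 plant 5 was the lowest of its treatment in RBL1 (97.0 normalised reads), and TC20 plant 3 the lowest in U86A1 (566).

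**Figure D5:**
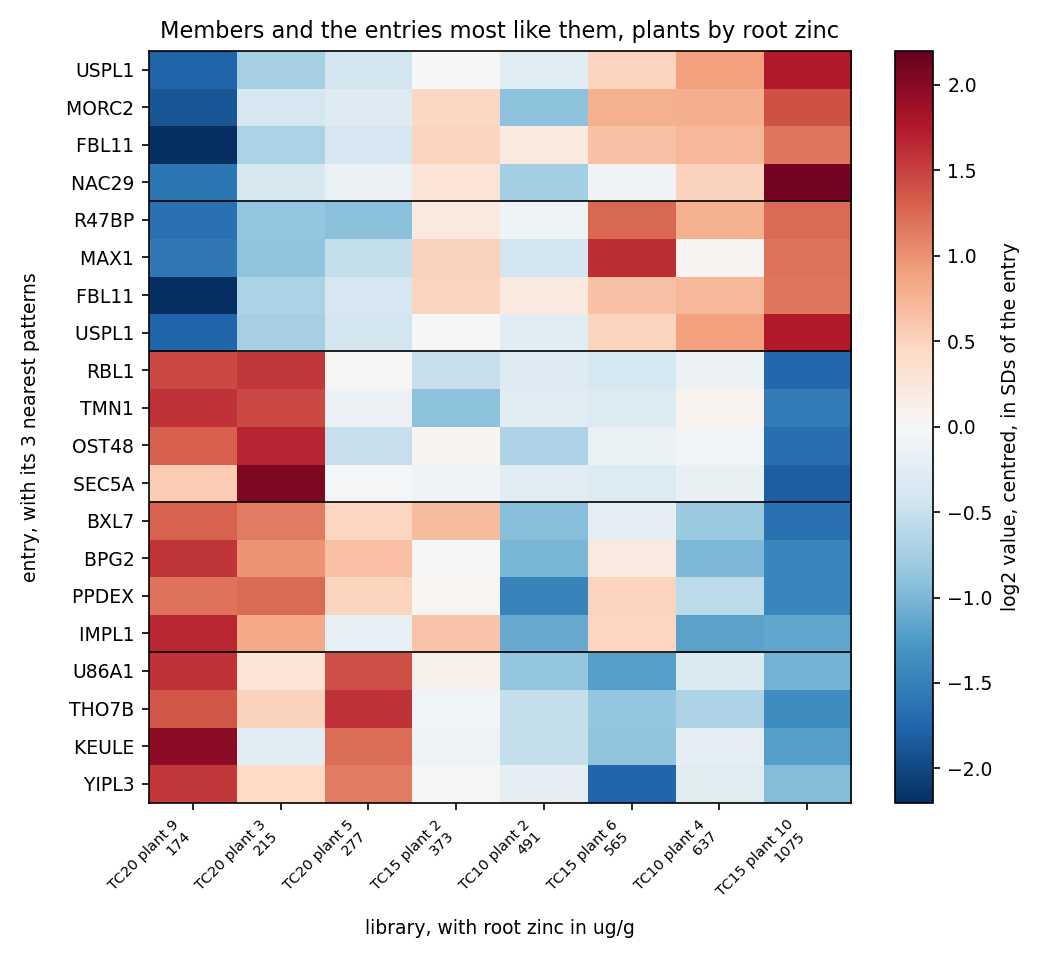
Heat map of log2(value + 1), centred on each entry's mean and divided by its SD over 8 libraries (colour), for each member (first row of each block) and its 3 nearest entries. Columns are plants from low to high root zinc, which stands under the plant's name in ug/g. The blocks of USPL1 and R47BP run from low to high, those of RBL1, BXL7 and U86A1 from high to low, and RBL1 and U86A1 differ in TC20 plants 3 and 5.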

How the data were processed

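Total RNA libraries of 9 root samples were sequenced, and the authors deposited 1 file of normalised signal per library. The submitters' processing notes name FastQC, Trim Galore, kallisto and DESeq2; their versions, the transcript reference and how entries were named are not stated in the labels. In each deposited file 100% of the signal values were whole multiples of the value of 1 read (within 0.001 of a read), so reads were recovered by division. No 0 is listed, and entries absent from a file were set to 0. Between 4995 and 5055 entries were listed per library used.

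Slopes and contrasts were fitted with limma 3.58.1 (R 4.3.3, empirical Bayes trend) on log2(value + 1) of 4801 entries, over all of which p-values were adjusted (Benjamini-Hochberg, threshold 0.05). Fold changes on this scale understate those of low entries. Metal contents entered as log2. On recovered reads, edgeR 4.0.16, DESeq2 1.42.0 and limma-voom were alternatives, with other pseudocounts, filters, scalings, covariates and each library left out. Scripts were tested on simulated counts. The members, gene lists and naming rules (nearest patterns, next ranks, relatives) were chosen with earlier results of these data known. Figures were drawn with matplotlib 3.10.9.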

Additional observations from a re-analysis of the deposited data

How the results depend on the processing

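The zinc slopes of the 5 entries kept their sign under every alternative run. They moved by more than 1 SE with treatment in the fit for USPL1 (0.83), R47BP (0.31), BXL7 (-0.44) and U86A1 (-0.35), and in the TC10 and TC15 libraries alone for R47BP (0.31), RBL1 (-0.52) and U86A1 (-0.40). Treatment in the fit leaves less zinc range and fewer degrees of freedom, and the cause of the changes was not tested. When single libraries were left out, the slopes were 0.63 to 0.75 for USPL1, 0.43 to 0.54 for R47BP, -0.73 to -0.59 for RBL1, -0.38 to -0.35 for BXL7 and -0.88 to -0.64 for U86A1.

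Without TC15 plant 2 the arsenic and lead slopes of all 5 entries were larger in size, and without TC15 plant 10 their arsenic slopes were smaller. With zinc in the fit, the arsenic slopes of USPL1 (-0.087), R47BP (-0.14), RBL1 (0.18) and U86A1 (0.20) and the lead slopes of USPL1 (-0.072), R47BP (-0.12), RBL1 (0.10) and U86A1 (0.091) reversed, and with edgeR the height slope of RBL1 (0.0017). With single libraries left out, the height slope ran from -0.14 to 0.052 for USPL1 and from -0.10 to 0.076 for RBL1, the lead slope from -0.045 to 0.24 for R47BP and from -1.03 to 0.035 for RBL1, and TC15 against TC10 from -0.093 to 0.60 for USPL1, -0.015 to 0.35 for BXL7 and -0.38 to 0.11 for U86A1.

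Entries called changed from 0 to 6 (zinc), 10 (arsenic), 42 (lead), 4 (height), 6 (stress), 35 (treatment F test), 14 (TC20 against TC10) and 22 (TC15 against TC10) with DESeq2, and from 1 to 11 in TC20 against TC15. On zinc, treatment in the fit gave 1. On lead, a mean of at least 100, TMM scaling and the TC10 and TC15 libraries alone gave 1 each, edgeR 2 and limma-voom 4, and libraries left out 0 to 2. The F test gave 1 without a filter and 0 to 1 with libraries left out. TC20 against TC15 gave 0 with a pseudocount of 10, a mean of at least 100, edgeR, limma-voom and each library left out (0 to 0). Without single libraries, TC20 against TC10 gave 0 to 2 and TC15 against TC10 0 to 4. No paired analysis was run, because the labels name no pairs or blocks of plants across treatments.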
